A study of Mus musculus with 40 samples.

Results

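Hspb7 and Hspb8 are small heat shock protein genes, and each was followed here through a repeat copy that lies in its messenger RNA. The copies are RLTR20A4 in the 3' UTR of Hspb7 and MIR3 in the 5' UTR of Hspb8. With all other annotated repeat copies within 15000 bases they make up 51 of the 835636 copies in the deposited table, 28 around Hspb7 and 23 around Hspb8. The members were selected on measured signal. The Hspb7 copy was chosen by its higher signal in F2 than in F0 tumours. No source names the contrast behind the Hspb8 copy, and N2.3 against N2.1, in which it ranks 5 by size among the copies called higher, is treated as that contrast. Values of these contrasts are given as a description, with no test.

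Small heat shock proteins bind partly unfolded proteins without using ATP and hold them until other chaperones or autophagy take over. Hspb7, also called the cardiovascular heat shock protein, is best known from heart and skeletal muscle, where it binds filamin. Hspb8 is also abundant in muscle, and works with the co-chaperone Bag3 to hand damaged proteins to autophagy, a process that has been tied to phosphorylation of the translation factor eIF2alpha.

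The libraries were made from poly(A) RNA of cultured cells. They come from YUMM1.7, a mouse melanoma line, and from cells grown out of the dissociated tumours of its serial passages through mice, kept in culture for 1 to 3 passages. The 40 libraries form 11 groups. There are 3 libraries of untreated YUMM1.7 cells, 4 each of the passages F0, F1 and Balb/c-1, 5 each of F2 and N2.1, and 3 each of N2.2, N2.3, Balb/c-2 and CBA. Another 3, called Balb/c-2 rep2, are second libraries of the 3 Balb/c-2 tumours. All groups carry the YUMM1.7 line, and letters name tumours of a passage. Balb/c and CBA are inbred strains of mice. For the F and N2 passages the host strain, the age of the hosts and the meaning of N2 are not stated in the labels. The untreated cultures share 1 line and each passage was made once. The p-values measure only the spread among these cultures or tumours.

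Signal is the deposited value per copy, whole reads divided by 1 factor per library, and 1 read was worth between 0.659 and 1.51. Libraries held 1280522 to 2976730 reads in repeat copies. The melanocyte identity could hardly be checked in repeat copies. Of 9 melanocyte markers 3 had an exon copy, Tyr and Mlana did not exceed 1.15 in any library, and Gpnmb, which other cell types also express, lay between 25.1 and 175. No leukocyte, endothelial, smooth muscle or striated muscle marker passed the filter on low values (a mean signal of at least 5). Of 9 fibroblast markers 6 had an exon copy. Pdgfra and Pdgfrb were present in every library, at 236 to 1644 and 281 to 1824, while Col1a1, Dcn, Thy1 and Fap had means of 1.0, 0.173, 0.261 and 0.0221 and were at 0 in at least 1 library each.

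The RLTR20A4 copy lies at chr4:141424729-141424881 (mm10), is 153 bases long and is the only exon copy of Hspb7 (ENSMUSG00000006221.7, chr4:141420779-141425311, plus strand). The MIR3 copy lies at chr5:116422496-116422625, is 130 bases long and is the only exon copy of Hspb8 (ENSMUSG00000041548.4, chr5:116408491-116422864, minus strand). The value of each gene is therefore the value of that copy, and reads elsewhere in the messenger RNA are not seen. Over all libraries the Hspb7 copy held 3681 reads and the Hspb8 copy 9161. The RLTR20A4 copy ranked 19 by mean among 1075 copies of its subfamily with any signal and held 1.19% of the subfamily's signal. The MIR3 copy ranked 13 of 697 and held 2.06%.

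None of the other 49 copies passed the filter. Around Hspb7 the 27 others had means between 0.0189 and 0.764 and held 183 reads in all, and among them 21 were intergenic, 3 in introns of Srarp and 2 in exons of the non-coding gene Gm13075. Around Hspb8 the 22 others had means between 0.0165 and 1.07 and held 312 reads, with 13 intergenic and 9 in introns of Hspb8 itself. The copies nearest the 15000-base limit were all under the filter, on either side of it. Just inside it the means were 0.187 and 0.0189 around Hspb7 and 0.0836 and 0.428 around Hspb8, and just outside 0.114 and 0.0844, and 0.111 and 0.956.

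Heat shock factor binds inverted repeats of the unit NGAAN in promoters, and so the RefSeq promoters (GRCm38.p6, 250 bases before to 50 after the start) were searched on both strands for 2 neighbouring units, GAANNTTC or TTCNNGAA, and for 3, GAANNTTCNNGAA or TTCNNGAANNTTC, which contain the shorter forms. Both genes had a promoter in the table. Hspb7 held neither form. Hspb8 held 1 site of 2 units, which begins at base 3 of the gene, after its start. It is shown here because it is the only one in the promoter windows of either gene, in capitals within 30 bases of the minus strand (chr5:116422844-116422873).
Hspb8: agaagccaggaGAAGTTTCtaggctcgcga
Such a pair of units was present in 15.1% of all 32851 promoters of this length and a triple in 0.603%. Among 14 heat shock chaperone genes with a promoter in the table, 8 held a pair and 4 a triple (Chordc1, Hspd1, Hspe1 and Hsph1). Among 5 other members of the small heat shock family, 3 held a pair and none a triple. A listed gene counted if any of its promoters held the form, while the shares of all promoters are per promoter. These matches describe letters only.

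Hspb7 was present in every library, between 7.81 (F0 tumour B) and 319 (F2 tumour B). The YUMM1.7 cultures had 10.6, 39.4 and 23.2. Tumours A to D of F0 had 53.0, 7.81, 23.5 and 18.4, a range that covers the cultures. The F1 tumours A, B, D and E had 29.9, 79.9, 214 and 51.7. The F2 tumours A to E had 61.1, 319, 116, 153 and 159, all above every F0 tumour. That gap is what chose the copy, with means of 162 ± 96.3 (SD, n = 5) in F2 and 25.7 ± 19.4 (n = 4) in F0, 0.0391% of the tested copies being called in that comparison. F1 lay between these groups and overlapped both.

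**Figure D1:**
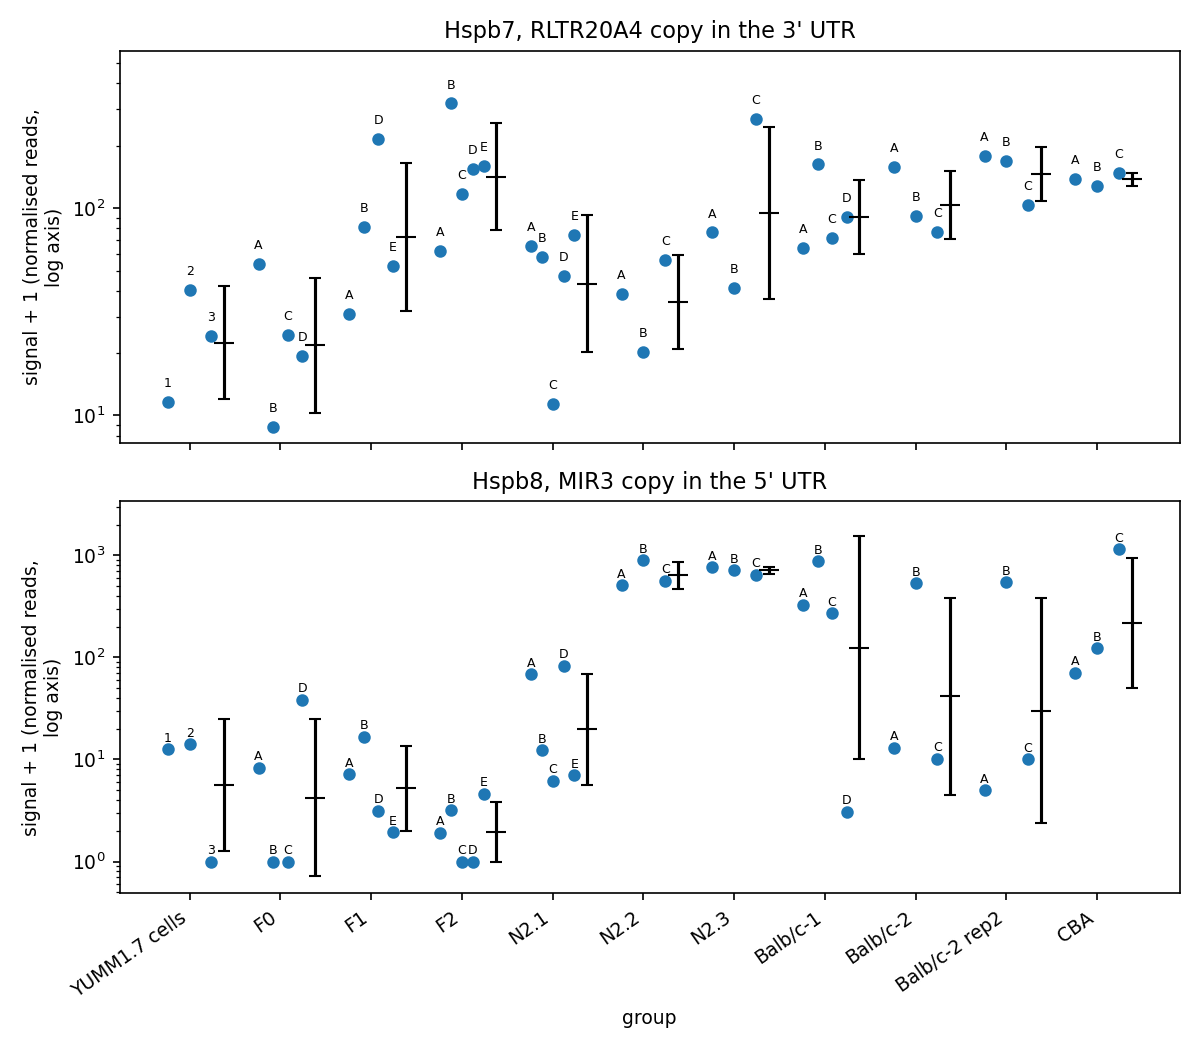
Signal + 1 (normalised reads, log axis) of the Hspb7 copy (upper panel) and the Hspb8 copy (lower panel) in each of the 40 libraries by group, with tumour letters or culture numbers; bars give mean ± SD of log2(signal + 1). All F2 tumours lie above all F0 tumours for Hspb7, while Hspb8 lies between 511 and 903 in N2.2 and between 649 and 769 in N2.3, and spreads from 2.08 to 875 in Balb/c-1.

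From F2 to N2.1 Hspb7 fell. The N2.1 tumours A to E had 64.7, 57.3, 10.4, 45.9 and 73.0, and the F2 values were 3.22 times as high on average. The ranges of these groups overlapped, since F2 tumour A (61.1) lay below N2.1 tumours A and E. On the log2(signal + 1) scale the difference was -1.71 (SE 0.50, limma adjusted p = 0.0217), in a comparison that called 9.7% of the 33215 copies tested, 2.36% lower and 7.34% higher. With TMM scaling the split was even, 3.99% lower and 4.15% higher. The F2 libraries in it are those in which the copy was chosen for being high. That choice favours a fall from F2, so the p-values of this comparison are not independent of it. The call was lost without F2 tumour B (-1.42, limma adjusted p = 0.0966) or without N2.1 tumour C (-1.23, adjusted p = 0.104), and with the share of intronic signal as a covariate (-1.85, adjusted p = 0.0781). Less RNA per cell and fewer cells of a kind cannot be told apart in such bulk libraries. The fibroblast marker Pdgfra fell in the same comparison, from 721 ± 262 (SD, n = 5) to 464 ± 399 (n = 5; log2 -0.86, SE 0.29, limma adjusted p = 0.0373). Pdgfrb, the other fibroblast marker tested, had 609 ± 107 (n = 5) in F2 and 778 ± 472 (n = 5) in N2.1 (log2 0.20, SE 0.30, limma adjusted p = 0.704). The mean summed signal of the fibroblast markers with an exon copy was 2040 in the YUMM1.7 cultures, 1330 in F2 and 1243 in N2.1. These markers therefore do not set fibroblasts apart from the YUMM1.7 line here. The part of these markers in the Hspb7 difference was not tested.

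Hspb7 was low in N2.2 too, with 37.6, 19.2 and 55.4 in tumours A to C. In N2.3 tumours A and B had 75.4 and 40.2 and tumour C 268, the second highest value of the series. This library stands apart for the sum of another gene group. The summed signal of 6 striated muscle markers with exon copies (of 10 listed) was 81.0 in N2.3 tumour C, from Tnnt2 (54.5) and Des (25.0), the genes of cardiac troponin T and desmin. The other markers with an exon copy were at or near 0 there, Ttn and Myl2 at 0.757 and Ryr2 and Nebl at 0. The summed signal was 0 in 31 of the 40 libraries and 5.02 in the next highest, N2.2 tumour B, where Hspb7 was 19.2. F2 tumour B, the library highest in Hspb7, had 1.09. The part of muscle-type expression in the Hspb7 value of N2.3 tumour C was not tested. N2.3 did not differ from N2.2 by the test (log2 1.42, SE 0.64, limma adjusted p = 0.556), and without tumour C the difference was 0.67.

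The Balb/c-1 tumours A to D had 63.6, 161, 71.1 and 89.5, and the Balb/c-2 tumours A to C had 157, 90.8 and 75.6. The second libraries of these Balb/c-2 tumours had 177, 168 and 103. CBA tumours had 137, 127 and 147, the narrowest range of any group. All Balb/c and CBA libraries lay above every YUMM1.7 and F0 library. F0 is the low side of the contrast that chose the copy, and the share of all copies separated in this way was not computed. In order of mean log2 value the groups ran F0, YUMM1.7 cells, N2.2, N2.1, F1, Balb/c-1, N2.3, Balb/c-2, CBA, F2 and Balb/c-2 rep2. Every pair of neighbours in this order overlapped in range. In the 11 comparisons other than the one that chose it, Hspb7 was called in N2.1 against F2 alone. That comparison shares the F2 libraries with the contrast that chose the copy. The next smallest adjusted p was 0.143 for F1 against F0 (log2 1.74, SE 0.56, limma), where the groups overlapped. The choice of the copy favours a rise from F0, so this p-value is not independent of it either. F2 against F1 and F0 against YUMM1.7 cells share libraries with the choosing contrast too. The share of all tested copies called was 0.268% in F1 against F0, 0.012% in N2.3 against N2.2, 0.232% in Balb/c-2 rep2 against Balb/c-2, and 0% in F0 against YUMM1.7 cells, F2 against F1 and Balb/c-2 against Balb/c-1.

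Hspb8 was low in the early groups, at no more than 37.7 in any library. The YUMM1.7 cultures had 11.6, 13.1 and 0. The F0 tumours A to D had 7.31, 0, 0 and 37.7, and tumour D was above 3 of the 5 N2.1 tumours. The F1 tumours A, B, D and E had 6.15, 15.8, 2.14 and 0.94, and the F2 tumours A to E had 0.911, 2.19, 0, 0 and 3.63. F2 held 7 reads in all, the fewest of any group. In the 5 libraries with no read, a count of 0 allows up to 3 reads, a signal of 2.6 to 3.16, for counting error only.

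In N2.1 the copy split the tumours. Tumours A and D had 68.0 and 82.2, and tumours B, C and E had 11.3, 5.2 and 6.02. All were above every F2 tumour, and the share of all tested copies separated in this way was not computed. The means were 34.5 ± 37.4 (SD, n = 5) in N2.1 and 1.35 ± 1.56 (n = 5) in F2. This difference did not pass the test over all groups (log2 3.35, SE 1.20, limma adjusted p = 0.0679), and the alternatives parted. It passed with these groups alone (limma adjusted p = 0.014) and in DESeq2 on the recovered reads (log2 4.67, adjusted p = 0.0135). It did not in edgeR (log2 4.55, adjusted p = 0.0687), with a pseudocount of 5 (2.06, limma adjusted p = 0.165) or with the intron share as a covariate (2.27, limma adjusted p = 0.445). Of the tested copies, 7.34% were called higher in N2.1 than in F2, and 4.15% with TMM scaling. N2.1 is the low side of the contrast treated as choosing the copy, so the p-values of this comparison are not independent of the choice.

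In N2.2 tumours A to C had 511, 903 and 565, and in N2.3 they had 769, 721 and 649. Each of these 6 libraries was above every library of the groups before them, with 511 as the lowest of them and 82.2 as the highest N2.1 value. The share of all tested copies separated in this way was not computed. The mean was 660 ± 213 (SD, n = 3) in N2.2 and 713 ± 60.6 (n = 3) in N2.3. N2.3 against N2.1 is the contrast treated as the choosing one, with 1.4% of copies called. N2.2 against N2.1 shares its N2.1 libraries, the low side of that contrast, so its p-values are not independent of the choice. There the log2 difference was 5.01 (SE 1.39, limma adjusted p = 0.166), not past the threshold in the fit over all groups, in which 0.111% of copies were called. With N2.1 and N2.2 alone in the fit the limma adjusted p was 0.0409. The fit over all groups takes 1 estimate of the spread per copy, and the SDs of the Hspb8 copy on the log2 scale ran from 0.124 in N2.3 to 3.65 in Balb/c-2 rep2. N2.2 and N2.3 overlapped and differed by 0.15 (SE 1.55, limma adjusted p = 0.995). This comparison shares its N2.3 libraries with the contrast treated as choosing the copy.

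**Figure D2:**
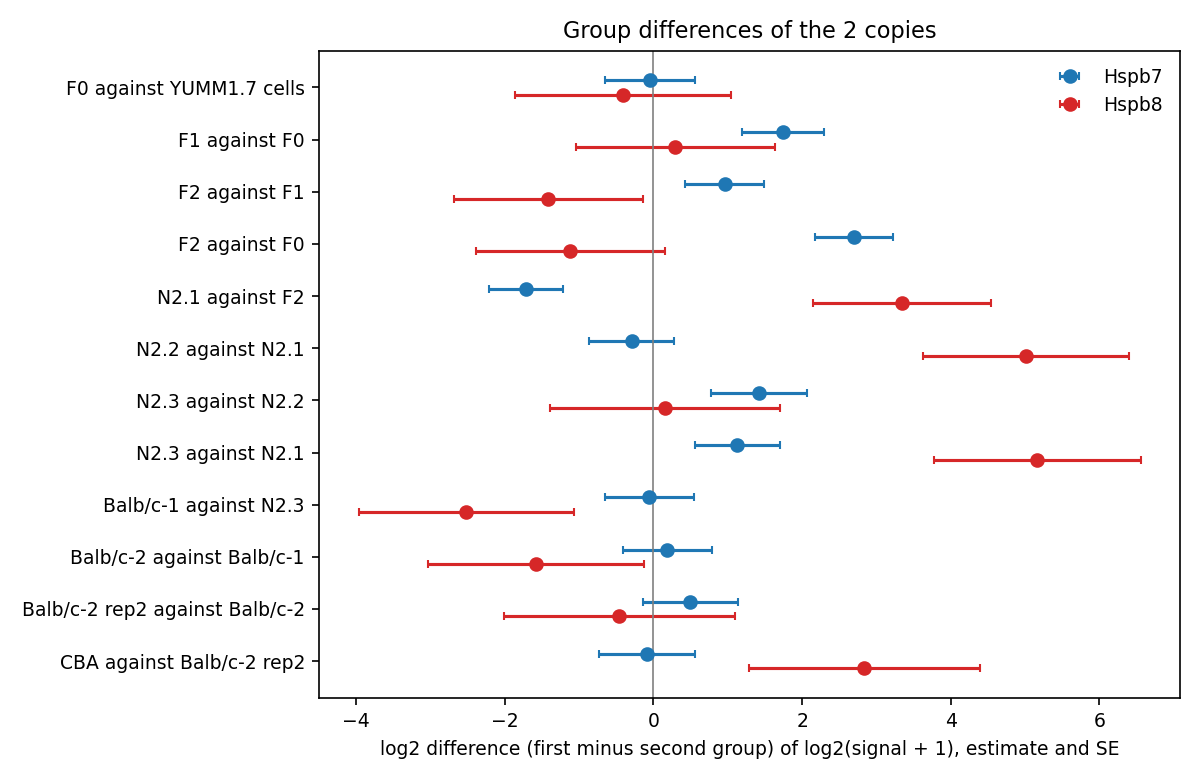
Log2 difference of log2(signal + 1) between the 2 groups of each of 12 comparisons (first minus second group) for the Hspb7 and Hspb8 copies, as limma estimates with SE over 40 libraries. From F2 to N2.1 the estimates have opposite signs, -1.71 for Hspb7 and 3.35 for Hspb8.

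After N2.3 the Hspb8 levels of single tumours parted. Balb/c-1 tumours A, B and C had 327, 875 and 270, and tumour D had 2.08, from 2 reads. In Balb/c-2 tumour B had 536 and tumours A and C had 12.1 and 9.16. CBA tumours A to C had 70.1, 122.8 and 1145, the last the highest value of the series. By group mean none of these differed by the test from the group before it. Balb/c-1 against N2.3 had a log2 difference of -2.52 (SE 1.45, limma adjusted p = 0.373), with 2.2% of copies called. N2.3 is the high side of the contrast treated as choosing the copy. That choice favours a fall from N2.3, so this p-value is not independent of it. CBA against Balb/c-2 rep2 had 2.84 (SE 1.55, limma adjusted p = 0.284), with 5.93% called. With 1 library left out it ran from 1.54 (without rep2 tumour A) to 4.93 (without rep2 tumour B, limma adjusted p = 0.0535), and it was 1.64 without CBA tumour C. The first of these was -0.74 without Balb/c-1 tumour D.

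The repeat libraries gave each Balb/c-2 tumour another measurement. For Hspb8 the libraries of tumour B gave 536 and 546 (478 and 494 reads), those of tumour A 12.1 and 3.99 (10 and 3 reads) and those of tumour C 9.16 and 9.08 (8 and 6 reads). The high tumour was high both times and the low ones were low both times. For Hspb7 the pairs were 157 and 177 in tumour A, 90.8 and 168 in tumour B and 75.6 and 103 in tumour C, each higher in the repeat. The log2 difference between the sets was 0.50 for Hspb7 (SE 0.64, limma adjusted p = 0.954) and -0.46 for Hspb8 (SE 1.55, adjusted p = 0.992).

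In order of mean log2 value Hspb8 ran F2, F0, F1, YUMM1.7 cells, N2.1, Balb/c-2 rep2, Balb/c-2, Balb/c-1, CBA, N2.2 and N2.3, and every pair of neighbours overlapped in range. The groups YUMM1.7 cells to F2, 16 libraries, held 103 of the 9161 reads. N2.2 and N2.3 held 26.2% and 29.2% of them.

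The intron copies of Hspb8 were highest in libraries in which its exon copy was high. Its 9 intron copies held 211 reads, and their sum was 0 in 21 libraries. Up to N2.1 the sum was at most 1.13, in F1 tumour B, from 1 read. It was 23.1, 27.6 and 23.0 in N2.2 tumours A to C and 12.7, 14.2 and 17.4 in N2.3. In Balb/c-2 the high tumour B had 6.73 and tumours A and C 0 and 1.15. In CBA tumour C had 17.6 and tumours A and B 1.05 and 3.26. Over the 40 libraries the log2 values of the exon copy and of the intron sum had Pearson r = 0.877 (Spearman rho = 0.83), a description over libraries that share depth and group. Reads also rose in intergenic copies of the window, unevenly between tumours. All 22 other copies of the window, introns and intergenic copies together, held 0 reads in F2. They held 146 reads in N2.2, 90 of them in introns, and 77 in N2.3, 56 of them in introns. In N2.2 tumours A to C they held 54, 67 and 25 reads, with 35, 33 and 22 in introns. Of the intergenic copies, MIRb at chr5:116436822 and B4 at chr5:116437279, near the edge of the window, held 29 and 21 reads over all libraries. In Balb/c-2 the 22 copies held 7 reads, all of them in introns.

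**Figure D3:**
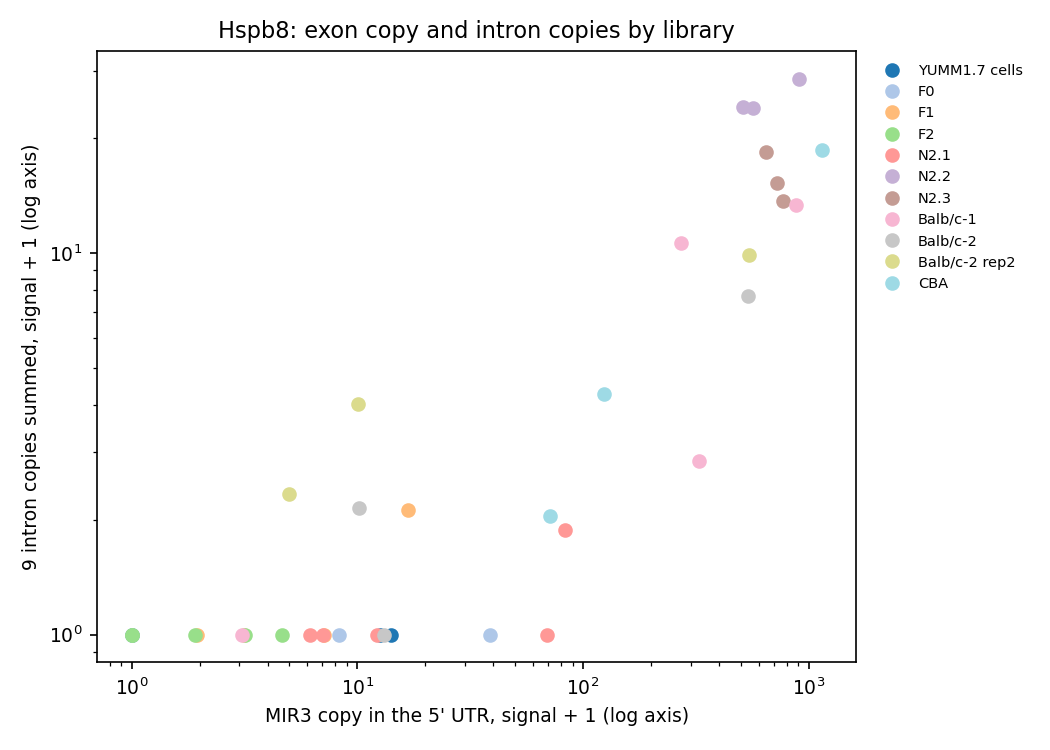
Signal + 1 of the 9 intron copies of Hspb8 summed (vertical, log axis) against that of its MIR3 exon copy (horizontal, log axis), 1 point per library, coloured by group. The N2.2 and N2.3 libraries lie at the upper right, and 21 libraries have an intron sum of 0.

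For each 100 reads in the exon copy, N2.2 tumours A to C had 4.52, 3.06 and 4.07 intron reads and N2.3 tumours 1.65, 1.97 and 2.68. The means were 3.88 ± 0.748 (SD, n = 3) and 2.1 ± 0.528 (n = 3), without overlap (exact two-sided permutation test p = 0.1, the smallest that 3 against 3 allows). Tumours of 1 group also differed. Tumours A to C had 0.563, 1.41 and 3.56 in Balb/c-1 and 1.49, 2.65 and 1.54 in CBA. The share of all signal in introns was 25.2% to 26.7% in N2.2 and 22.2% to 26.6% in N2.3. Over all libraries that share ran from 14.3% to 27.3%. Its r with Hspb8 was 0.461 and with Hspb7 -0.152, and its part in the Hspb8 levels was not tested beyond the fits with it as a covariate. In these the Hspb8 difference went from 5.01 to 4.79 in N2.2 against N2.1, from 3.35 to 2.27 in N2.1 against F2 and from 2.84 to 1.48 in CBA against Balb/c-2 rep2. Hspb7 has no annotated repeat copy in its introns. The 16 copies downstream of it held 108 reads, and their sum had r = 0.0484 with the Hspb7 copy.

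Whether the genes rise in the same tumours was tested within groups, on deviations of log2(signal + 1) from the group mean in 37 libraries, leaving out Balb/c-2 rep2 since it repeats 3 tumours. Pearson's r was 0.121 (permutation within groups, 100000 draws, two-sided p = 0.475) and Spearman's rho 0.119 (p = 0.518). The Benjamini-Hochberg adjustment over this pair of tests leaves both at 0.518. Without the 2 libraries farthest from the median of the Hspb7 deviations, N2.1 tumour C and F1 tumour D, r was 0.0915 (permutation p = 0.622). No relation was detected with 37 libraries, which does not show that the genes are independent.

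**Figure D4:**
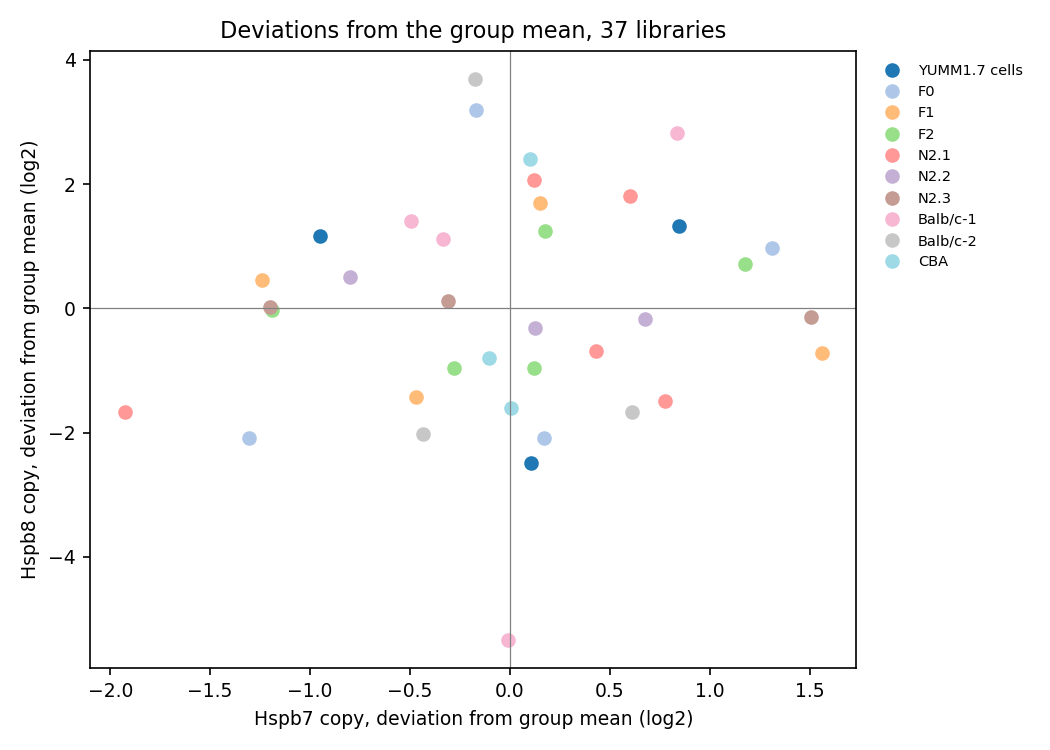
Deviation of log2(signal + 1) from the group mean for the Hspb8 copy (vertical) against the Hspb7 copy (horizontal), 1 point for each of 37 libraries, coloured by group. Points lie on both sides of both zero lines (r = 0.121).

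The tumour or culture highest in Hspb7 was also the highest in Hspb8 in 3 of 10 groups, YUMM1.7 culture 2, Balb/c-1 tumour B and CBA tumour C. In groups this small some such matches arise without any relation, and the number expected was not computed. In Balb/c-2 tumour A was the highest in Hspb7 (157) and had 12.1 of Hspb8, while tumour B had 90.8 and 536. F2 tumour B had 319 of Hspb7 and 2.19 of Hspb8. N2.2 tumour B had the lowest Hspb7 of its group, 19.2, and the highest Hspb8, 903. Across the 10 group means r was 0.234 (rho 0.139), which the choice of members by group contrasts touches. Of the 33215 tested copies, 6977 had a higher r with Hspb7 over the 40 libraries than the Hspb8 copy did (r = 0.144), and 14205 had a higher r with Hspb8 than the Hspb7 copy did.

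The copies and host genes most like each member were taken by r of log2(signal + 1) over all 40 libraries. For Hspb7 the nearest copy was B4A in the 5' UTR of Dmac2 (chr7:25620174-25620423, r = 0.687), a gene for an assembly factor of respiratory complex I. The other copies lay in 9530082P21Rik (r = 0.657), Oasl2 (r = 0.616), Tbck (r = 0.611) and Apol7a (r = 0.61). The nearest host gene sums were Dmac2 (r = 0.69), Sphk1, a sphingosine kinase (r = 0.619), Gm39822 (r = 0.604), Fndc7 (r = 0.592) and Txnip, the thioredoxin-interacting protein (r = 0.591). Dmac2 had a mean summed signal of 20.3 ± 9.08 (SD, n = 4) in F0, 43.9 ± 8.89 (n = 5) in F2 and 28.2 ± 4.89 (n = 5) in N2.1.

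The highest values of r were larger for Hspb8 than for Hspb7. The nearest copies were MurSatRep1 in Gm20541 (chr17:38009378-38011135, r = 0.862), RMER15 in the 3' UTR of Gm13212 (chr4:145625118-145625426, r = 0.86), L1M5 in an intron of Slc3a1 (r = 0.83), a MurSatRep1 copy in the coding exon of Gm13212 (r = 0.821) and Lx8 in the 3' UTR of Nxf3 (r = 0.819). The nearest host gene sums were Gm20541 (r = 0.864), Gm13212 (r = 0.839), Nxf3, of the RNA export factor family (r = 0.819), Nod2, a sensor of bacterial cell walls (r = 0.809), and Luc7l2, a splicing factor (r = 0.806). Gm13212 had a mean sum of 1.96 ± 1.17 (SD, n = 5) in F2, 37.8 ± 25.3 (n = 5) in N2.1, 97.7 ± 13.3 (n = 3) in N2.2 and 139 ± 32.7 (n = 3) in N2.3. Nxf3 was at most 2.25 in every library before N2.1 and reached 581 in a CBA tumour. The median r over all tested copies was -0.0468 for Hspb7 and 0.0937 for Hspb8, so r ran higher for Hspb8 over the tested copies at large. These libraries share depth, group and culture history.

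The wider chaperone system was seen only in part, since a gene enters through repeat copies in its exons. None of 8 other small heat shock family genes, among them Hspb1, Hspb6 and Cryab, had an exon copy. Of 18 heat shock chaperone genes and factors 9 were tested. In N2.1 against F2, 1 of them was called, and 15.1% of all 7634 host genes tested were. Chordc1, a co-chaperone of Hsp90, rose from 419 ± 68.5 (SD, n = 5) to 644 ± 83.7 (n = 5; log2 0.62, SE 0.15, limma adjusted p = 0.00403). With TMM scaling that call was lost and Stip1, an adaptor between Hsp70 and Hsp90, was called lower instead. The median log2 difference was 0.39 for the 9 and 0.12 for all host genes tested.

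Hspa4l, an exchange factor of the Hsp110 family, was the chaperone gene called in the N2 series. It rose from 793 ± 120 (SD, n = 5) in N2.1 to 1516 ± 243 (n = 3) in N2.2 (log2 0.93, SE 0.23, limma adjusted p = 0.0457) and fell to 645 ± 151 (n = 3) in N2.3 (log2 -1.25, SE 0.25, adjusted p = 0.0362). Both calls were lost with TMM scaling. Of all host genes tested 0.485% and 0.0524% were called in these comparisons. No chaperone gene of the list was called in the other 9 comparisons. Hspb8 in N2.3 (649 to 769) lay within its range in N2.2 (511 to 903).

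Of 11 genes of chaperone-assisted autophagy 6 were tested, and Bag3 was not among them because it had no exon copy. Map1lc3b, which coats autophagosomes, rose from 53.7 ± 13.1 (SD, n = 5) in F2 to 95.9 ± 11.1 (n = 5) in N2.1 (log2 0.85, SE 0.22, limma adjusted p = 0.00792). This is 1 of 6 in a comparison that called 15.1% of all host genes tested, so the share is near the background. None of the 6 was called in the other 11 comparisons, but in Balb/c-1 against N2.3 a pseudocount of 5 called Lamp2, a lysosomal membrane protein, lower, and TMM scaling called Wipi1, an autophagosome protein, higher. Of 11 genes of eIF2alpha phosphorylation and endoplasmic reticulum stress 6 were tested. In N2.1 against F2, with the same 15.1% background, 2 of the 6 were called, in opposite directions. Eif2ak2, the interferon-inducible kinase PKR, rose from 1319 ± 605 (SD, n = 5) to 2982 ± 1516 (n = 5; log2 1.17, SE 0.32, limma adjusted p = 0.0108). Xbp1, a transcription factor of the unfolded protein response, fell from 818 ± 155 (n = 5) to 519 ± 125 (n = 5; log2 -0.67, SE 0.17, limma adjusted p = 0.00548). Eif2ak2 fell again in CBA against the Balb/c-2 repeat libraries, from 3850 ± 751 (SD, n = 3) to 1594 ± 860 (n = 3; log2 -1.38, SE 0.41, limma adjusted p = 0.0231), where 12.5% of host genes tested were called. The median log2 difference in N2.1 against F2 was 0.34 for the autophagy list and 0.16 for the stress list. In the other 10 comparisons no gene of the stress list was called. The share of all host genes called was 0.0131% in F0 against YUMM1.7 cells, 0.773% in F1 against F0, 0.17% in F2 against F0 and 0% in F2 against F1. It was 3.89% in N2.3 against N2.1, 7.31% in Balb/c-1 against N2.3, 0.0262% in Balb/c-2 against Balb/c-1 and 0.472% in Balb/c-2 rep2 against Balb/c-2.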

How the data were processed

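The authors deposited 1 table with a signal value for each annotated repeat copy in each of 40 libraries. The values show whole reads divided by 1 factor per library (100% of values were whole within 0.1 of a read after that division), and the reads were recovered from it. For 1 library, YUMM1.7 culture 2, a read is worth within about 1% of 1. Per the submitters' processing notes the build was mm10 and the tools included featureCounts 1.5.0-p3, HISAT2 2.0.5 and StringTie 1.3.3b, with no roles given. How the factors were computed, which repeat annotation was used, how reads with several matches were counted and whether strand was used are not stated there. Reads of an antisense transcript therefore cannot be told apart.

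Copies were placed by GENCODE release M21 with bedtools 2.31.1. Copies with a mean signal of at least 5 (33215) entered a limma fit (version 3.58.1, R 4.3.3) of log2(signal + 1), with 1 mean per group over 11 groups, a trended prior and Benjamini-Hochberg adjustment over all copies, and called at an adjusted p under 0.05. Exon copies were summed per host gene (18489 genes, 7634 tested). Folds are on the log2(signal + 1) scale, which understates the change of low copies. Counts of reads recovered from the deposited values went into edgeR 4.0.16 and DESeq2 1.42.0 as alternatives. Other steps used Python 3.11.15 with scipy 1.17.1, numpy 2.4.6, matplotlib 3.10.9 and pandas 2.3.3.

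The members and gene lists were chosen with earlier results of these data known. Named copies are the 2 members, the 5 copies and 5 host genes most like each, and called list members. The place of 1 copy near Hspb7 is not reported here. The labels name 2 sequencing batches without assigning libraries to them, so batch was not a term. The library names of Balb/c-2 rep2 and CBA alone carry a flow cell and lane (tumour B of Balb/c-2 rep2 another flow cell than the rest), so CBA was compared within that set, and Balb/c-2 rep2 against Balb/c-2 gives the difference between the sets in the same tumours. For the other groups batch and group cannot be told apart. Tumour letters pair the Balb/c-2 rep2 libraries with those of Balb/c-2, which the titles give as the same tumours. Over copies, deviations from the group means had r of 0.155 to 0.255 between libraries of 1 tumour and of -0.195 to -0.0563 between tumours.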

Additional observations from a re-analysis of the deposited data

Results flagged for a closer look

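Groups of 4 or 5 libraries were searched for a library set apart by its gap to the nearest neighbour, relative to the range. In 2 of 13 sets of a gene and group, 1 library stood apart. Both concern the summed intron copies of Hspb8 and rest on a single read. A set with 1 read in 1 library and 0 in the others always meets this rule, so these flags have no chance rate. The sum was 1.13 in F1 tumour B and 0.883 in N2.1 tumour D, with 0 in the other tumours of these groups. These tumours also had the highest Hspb8 exon copy of their groups, 15.8 and 82.2.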

How the results depend on the processing

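The within-group relation between the genes stayed positive and short of the threshold under all 55 alternatives (r from 0.0244 to 0.161, p from 0.35 to 0.89). They include single libraries and groups left out, and 1 alternative was added after seeing the data, group means kept without F0 tumour B and N2.1 tumour C (r = 0.0244, against 0.144 with them). For Hspb7, N2.1 against F2 lost its call without a filter on low values (log2 -1.71, adjusted p = 0.122) and with the intron share as a covariate (-1.85, adjusted p = 0.0781), and ran from -2.01 to -1.23 with 1 tumour left out. For Hspb8, N2.1 against F2 gained a call with these groups alone (3.35) and in DESeq2 (4.67). N2.2 against N2.1 gained a call with these groups alone (5.01). Both comparisons share the N2.1 libraries with the contrast treated as choosing the copy. The other alternatives made no call in either (adjusted p up to 0.445 and 0.505).

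Signs that turned belong to differences short of the threshold. Hspb7 in F0 against YUMM1.7 cells (-0.04) was 0.076 in edgeR and 0.074 in DESeq2, and in Balb/c-1 against N2.3 (-0.06) it was 0.091 with TMM factors and 0.021 with the intron share. Hspb8 in F0 against YUMM1.7 cells (-0.41) was 0.44 in edgeR and 0.45 in DESeq2. In F1 against F0 (0.30) it was -0.11 with a pseudocount of 5, -0.87 in edgeR and -0.85 in DESeq2. In Balb/c-2 rep2 against Balb/c-2 (-0.46) it was 0.020 in edgeR and 0.0060 in DESeq2. The cause was not tested. With 1 library left out, Hspb7 ran from -0.52 to 0.39 (F0 against YUMM1.7 cells), -0.77 to 0.11 (N2.2 against N2.1), -0.66 to 0.70 (Balb/c-1 against N2.3), -0.12 to 0.47 (Balb/c-2 against Balb/c-1) and -0.33 to 0.055 (CBA against Balb/c-2 rep2). Hspb8 ran from -1.66 to 0.28 (F0 against YUMM1.7 cells), -0.40 to 1.36 (F1 against F0), -0.0066 to 0.40 (N2.3 against N2.2) and -2.55 to 1.39 (Balb/c-2 rep2 against Balb/c-2).

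With the tumour letter as a replicate block Hspb7 in N2.1 against F2 was -1.71 (limma adjusted p = 0.0274) and Hspb8 in N2.2 against N2.1 4.75 (adjusted p = 0.256). In the paired fit of the 6 Balb/c-2 libraries Hspb7 was 0.50 (adjusted p = 0.314) and Hspb8 -0.46 (adjusted p = 0.638). The block changed no call in the comparisons given with a test. The contrasts treated as choosing the members are again given with no test. In them the block moved Hspb7 from 2.70 to 2.66 (F2 against F0) and Hspb8 from 5.17 to 4.91 (N2.3 against N2.1). The number of copies called moved with the settings, from 3222 to between 1147 and 3604 in N2.1 against F2, from 37 to between 17 and 1849 in N2.2 against N2.1, from 466 to between 165 and 2687 in N2.3 against N2.1 and from 13 to between 0 and 48 in F2 against F0. TMM factors moved the median over all copies in N2.1 against F2 from 0.26 to 0.06 and in CBA against Balb/c-2 rep2 from 0.20 to 0.096; Hspb7 in the former was -1.93 and Hspb8 3.21 with TMM. Each gene rests on 1 copy, and Hspb8 on at most 39 reads per library up to F2, where small differences are not detectable at this depth.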
